A study of Homo sapiens with 8 samples.

Results

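The genes described here make, export and use microRNAs. They are DROSHA, DGCR8, XPO5, DICER1, AGO1, AGO2, AGO3, AGO4, TNRC6A and TNRC6B. The choice was by name, for their roles, and was made with earlier results of these data known. All 10 were found among the 31461 genes listed in the deposited table, each in both cell lines, and all 10 were among the 14635 genes tested. AGO3 and TNRC6B were low, with 6 and 7 of the 8 libraries at 1 FPKM or more, while the other members reached that level in all 8. FPKM counts fragments per kilobase of transcript, scaled to the mapped fragments of the library, so levels are per length. Setting genes side by side rests on the transcript length used for each, and the annotation behind those lengths is not stated.

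RNA-seq was done on A549, a lung adenocarcinoma line, and on NCI-H1299 (labelled H1299), a large cell lung carcinoma line, both labelled wild type. Each received by transfection either a microRNA that served as control or miR-29a-3p, which the labels call overexpressed. The stated purpose was to look for targets of miR-29a-3p. There were 4 groups of 2 libraries, A549 control, A549 miR-29a-3p, H1299 control and H1299 miR-29a-3p. All groups share transfection with a small RNA, no untransfected library was analysed here, and each line is a single established line. The labels give neither the dose nor the time after transfection, nor do they say whether the libraries of a group are separate cultures. The p-values therefore measure only how far these libraries spread, which may be technical.

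Marker genes lay opposite to the line labels, so every line named below is the label of its libraries. Of 8 genes typical of A549, 7 were higher in the controls labelled H1299. CDKN2A, which A549 lacks, ranged from 0.051 to 0.112 FPKM in the H1299-labelled libraries and from 23.8 to 28.4 in those labelled A549. Libraries held an estimated 12221310 to 15614821 fragments. Each member rested on an estimated 161 to 2412 fragments in a library, taken over its full annotated exonic length. The 5 epithelial markers (EPCAM, CDH1, KRT8, KRT18, KRT19) summed to 79.45 to 82.18 FPKM in the A549-labelled controls and 61.64 to 65.1 after miR-29a-3p, and to 84.27 to 99.46 then 153.6 to 163.6 under the H1299 label. KRT8 went from 32.6 to 80.7 there and KRT19 from 4.39 to 20.0 (means of 2), while KRT18 went from 52.9 to 56.3 and CDH1 from 1.89 to 1.54. Under the A549 label KRT8 went from 25.7 to 17.8 and KRT18 from 53.3 to 42.5, while KRT19 went from 1.58 to 2.95. EPCAM stayed under 1 FPKM in every library and CDH1 under 1 in the A549-labelled ones. The 3 mesenchymal markers (VIM, CDH2, ZEB1) summed to 298.7 to 312.9 then 322 to 329.9 under the A549 label. Under the H1299 label they summed to 108.4 to 153.6 then 163.5 to 227.5. Most of each sum was VIM, which stood at 92.2 and 136.2, then at 148.4 and 213.2, in the H1299-labelled libraries. CDH2 went from 10.1 to 8.67 under the A549 label and from 15.1 to 13.2 under the H1299 label (means of 2). ZEB1 went from 1.69 to 1.41 under the H1299 label but was higher after miR-29a-3p under the A549 label. All 4 endothelial markers and 4 of 5 leukocyte markers were also under 1 FPKM throughout, the exception being CD68 at 8.09 to 24.9, and the leukocyte gene PTPRC did not exceed 0.00675 FPKM. The leukocyte list summed to 8.19 to 8.32 FPKM in the H1299-labelled controls and to 23.85 to 25.17 after miR-29a-3p, nearly all of it CD68. The part of these marker changes in the results was not tested. Fibroblast markers summed to between 0.1305 and 2.04 FPKM, with LUM alone above 1. RNA was from whole cultures, so fewer cells of a kind and less RNA per cell cannot be told apart.

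In the nucleus, the nuclease DROSHA and its partner DGCR8 cut hairpins out of primary microRNA transcripts. Exportin 5, made from XPO5, carries the hairpins to the cytoplasm, where DICER1 trims them to short duplexes. An Argonaute protein keeps a single strand as guide, and TNRC6 proteins link it to the enzymes that shorten the poly(A) tail and silence the bound mRNA. A guide finds its mRNA mainly through its seed, bases 2 to 8, which pairs with a matching site in the 3′ UTR. The miR-29 family is known for repressing collagen and other matrix genes.

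The sequences of the transfected microRNA and of its family members are shown because they share the seed that was searched for in the 10 genes. They come from RefSeq (GRCh38.p14) and are written 5′ to 3′ with the seed in capitals.
hsa-miR-29a-3p: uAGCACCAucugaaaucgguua
hsa-miR-29b-3p: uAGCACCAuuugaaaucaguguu
hsa-miR-29c-3p: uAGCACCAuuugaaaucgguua
The bases of miR-29a-3p lie at chr7:130876748-130876769 on the minus strand.

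The matching site in an mRNA is TGGTGCT (7mer-m8), or TGGTGCTA where an A follows (8mer), and the weaker forms are GGTGCTA (7mer-A1) and GGTGCT (6mer). The longest annotated 3′ UTR of each gene in GENCODE release 29 (GRCh38) was searched on the mRNA strand, with each 6mer match counted once under its longest form. A 7mer-m8 or 8mer was found in 5 of the 10 members, XPO5, DICER1, AGO1, AGO2 and AGO3. Of 11630 tested genes with an annotated 3′ UTR, 16.4% held such a site. Their median UTR length was 1356 bases, while those of AGO1, AGO2, AGO3 and TNRC6B ran from 10921 to 16755. Among genes whose UTR was of like length (35 to 1866 genes), 60.4% held one for AGO1, 61.8% for AGO2, 65.7% for AGO3 and 62.8% for TNRC6B, against 14.5% for XPO5 and 32.6% for DICER1. DROSHA, AGO4 and TNRC6A held no match of even 6 bases in this window, DGCR8 held a single 6mer and TNRC6B a single 7mer-A1. Of all tested genes with an annotated 3′ UTR, 65.8% held no match of 6 bases either. Among genes of like UTR length, a 7mer-m8 or 8mer was held by 10.1% for DROSHA, 15.8% for DGCR8, 20.4% for TNRC6A and 33% for AGO4. A match is a description of the letters and was not tested as a binding site.

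Sites are shown with the bases before them, because members that carry them moved in different ways. Capitals mark the seed match, and the last base of each lies opposite the first base of the microRNA. The AGO2 sequence is not printed here.
XPO5, chr6:43522571-43522600, minus strand: tgtgttgctccctcttcctgtgTGGTGCTc
DICER1, chr14:95089091-95089120, minus strand: ttgcatgcatttttcccctgttTGGTGCTA
AGO1, chr1:35922406-35922435, plus strand: gctcatgtggatttggtttaagTGGTGCTt
AGO1, chr1:35923688-35923717, plus strand: tgggcagggagagaggctgggtTGGTGCTc
AGO1, chr1:35924864-35924893, plus strand: aaggtgtccagtaaacacaggtTGGTGCTc
AGO3, chr1:36061762-36061791, plus strand: tagaaagtgccttttcagaagaTGGTGCTg
AGO3, chr1:36069686-36069715, plus strand: ttcaaaaaccaaatgattttagTGGTGCTA
All lie in the last stretch of the transcript after the stop codon, at 1290 bases in XPO5, 1400 in DICER1 and between 2821 and 13963 in the Argonaute genes.

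**Figure D1:**
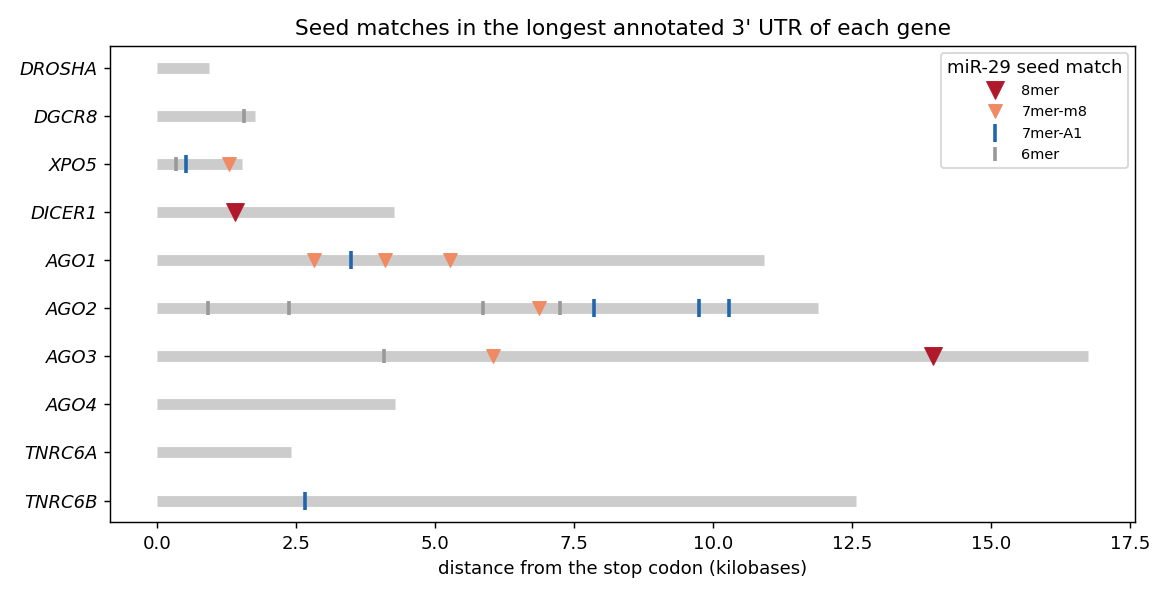
Seed matches of miR-29 in the longest annotated 3′ UTR of each of the 10 genes, drawn as grey bars against the distance from the stop codon in kilobases. XPO5 holds 3 matches in 1538 bases, AGO2 holds 8 in 11888 bases, and DROSHA, AGO4 and TNRC6A hold none.

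After miR-29a-3p, XPO5 and AGO2 were lower and TNRC6A was higher in both lines, DROSHA and DGCR8 were higher and AGO3 was lower in the H1299-labelled libraries, and AGO1 and DICER1 passed the test in neither line. The test was limma on log2(FPKM + 1) with Benjamini-Hochberg adjustment over all genes tested, and a gene was called at an adjusted p under 0.05. Of the 10 members, 1 rose and 2 fell in the A549-labelled libraries, where 16.0% of all genes were called, 7.30% higher and 8.66% lower. In the H1299-labelled libraries 3 rose and 3 fell, where 50.0% of all genes were called, 25.1% higher and 24.8% lower, so 6 of 10 is near that background. Called lower in both lines were 2 of 10 members and 4.07% of all genes, and called higher in both were 1 of 10 and 2.94%. The responses of the lines differed for 4 of the 10 members, with XPO5, AGO2 and AGO4 above 0 and DGCR8 below 0 as A549-labelled minus H1299-labelled response. Of all genes 37.3% were called, 18.1% above and 19.2% below 0. The libraries of treated and control groups did not overlap for 4 of 10 members under the A549 label, against 59.0% of all genes, and for 10 of 10 under the H1299 label, against 76.0%. The background in the A549-labelled libraries depended on the fit. With that line fitted alone, on all 4 of its libraries, 7.32% of all genes were called. The share also fell whichever 1 of these libraries was left out, which leaves a group with 1 library.

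**Figure D2:**
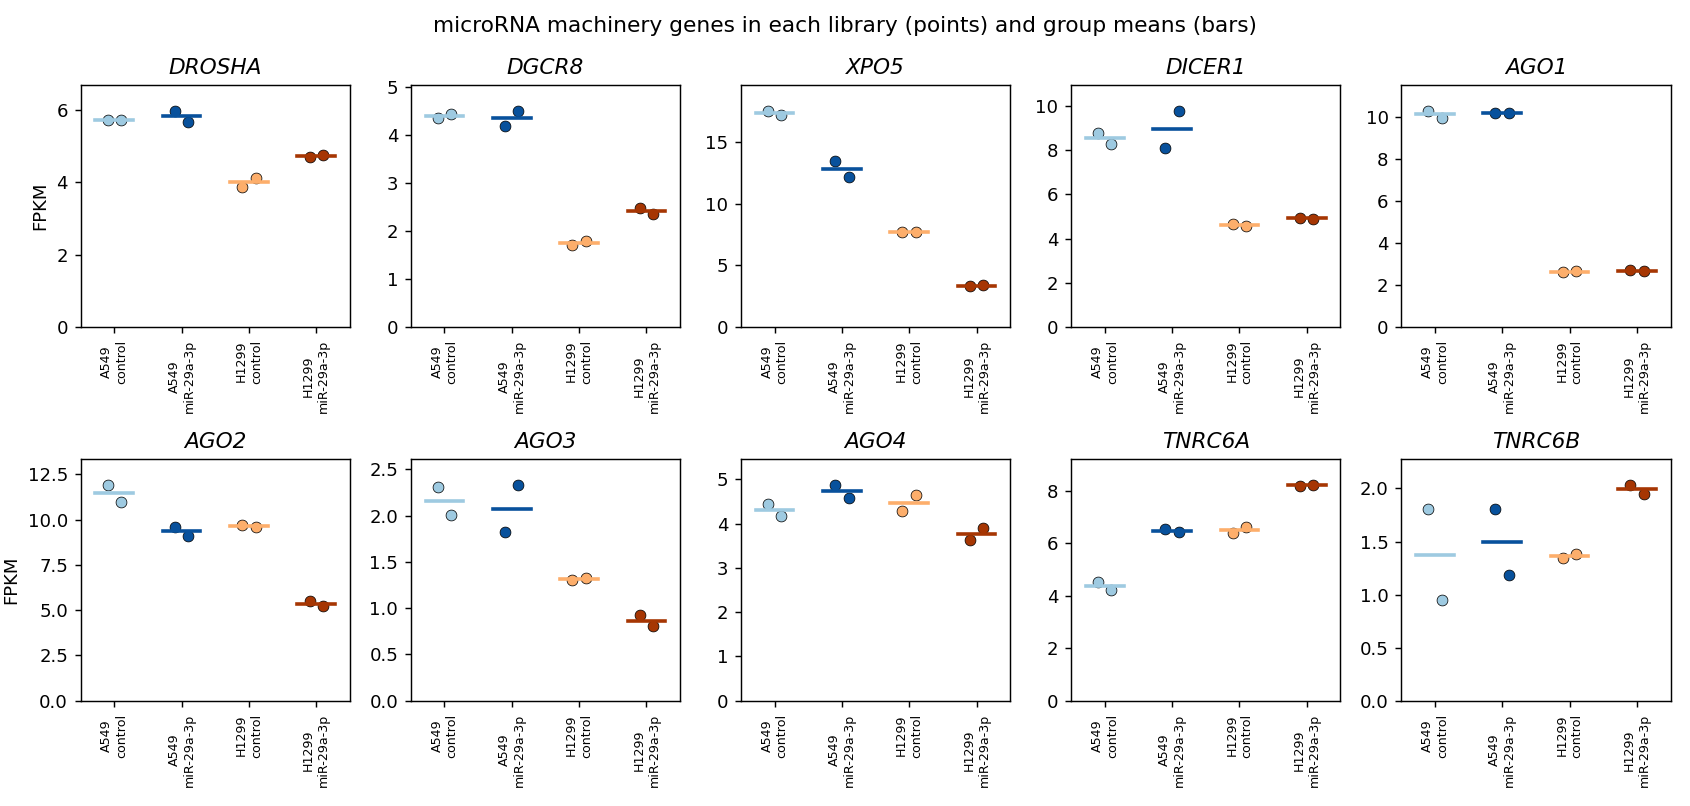
FPKM of each of the 10 genes on axes that start at 0, with 1 point per library and a bar at the mean of each group of 2. XPO5 and AGO2 lie lower after miR-29a-3p in both lines and TNRC6A lies higher, without overlap between groups, while AGO1 differs between lines but hardly within them.

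XPO5 (ENSG00000124571, chr6:43522330-43576075, minus strand), the hairpin exporter, gave the widest range of the members. In the A549-labelled libraries it stood at 17.5 and 17.2 FPKM in the controls and at 13.5 and 12.2 after miR-29a-3p. Under the H1299 label it stood at 7.68 and 7.70 in the controls and, after treatment, at 3.33 and 3.36. The treated libraries were below their controls in both lines. The mean fell by 26.1% in the first line, from 17.4 ± 0.21 to 12.8 ± 0.90 (SD, n = 2 each). On the log2 scale that was -0.41 ± 0.06 (SE, limma adjusted p = 0.00681). It fell by 56.5% in the second, from 7.69 ± 0.0098 to 3.34 ± 0.026, a log2 fold change of -1.0 ± 0.06 (limma adjusted p = 4.84e-05). Both calls held under all 15 alternatives, with adjusted p of 0.00382 to 0.0466 and of 2.41e-05 to 0.00208. The fall was larger in the H1299-labelled libraries, by 0.59 ± 0.08 on the log2 scale (limma adjusted p = 0.00243 for the difference).

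XPO5 overlaps POLR1C, a polymerase subunit gene on the opposite strand, by 348 exonic bases, which is 4.08% of its exonic length. Without a stated strand setting, fragments from this overlap cannot be told apart. POLR1C stood at 5.62 and 5.69 FPKM in the A549-labelled controls and at 5.89 and 5.32 after miR-29a-3p, and at 3.42 and 3.16 then 2.50 and 2.38 in the H1299-labelled libraries. Its part in the XPO5 values was not tested.

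AGO2 (ENSG00000123908, chr8:140520156-140635619, minus strand) is the Argonaute of this family that can cut a fully paired target. It stood at 11.9 and 10.98 FPKM in the A549-labelled controls and at 9.59 and 9.11 after miR-29a-3p. In the H1299-labelled libraries it stood at 9.68 and 9.57, then at 5.52 and 5.21. Treated libraries were again below their controls in both lines. The fall was 18.4% in the A549-labelled libraries, from 11.5 ± 0.68 to 9.35 ± 0.34 (SD, n = 2 each), with a log2 fold change of -0.27 ± 0.06 (SE, limma adjusted p = 0.0313). That call was lost without any of the 4 A549-labelled libraries or either H1299-labelled control (adjusted p = 0.053 to 0.126), when low genes were kept (adjusted p = 0.0525) and when the line was fitted alone (adjusted p = 0.0954). The range over its 15 alternatives was 0.0211 to 0.126. Under the H1299 label AGO2 fell by 44.3%, from 9.63 ± 0.073 to 5.36 ± 0.22, with a log2 fold change of -0.74 ± 0.06 (limma adjusted p = 0.000161), a call that held under every alternative. The responses differed by 0.47 ± 0.08 on the log2 scale (limma adjusted p = 0.00647 for the difference).

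TNRC6A (ENSG00000090905, chr16:24610209-24827632, plus strand), the scaffold that recruits deadenylases to Argonaute, went the other way. It stood at 4.51 and 4.23 FPKM in the A549-labelled controls and at 6.53 and 6.43 after miR-29a-3p. In the H1299-labelled libraries the values were 6.39 and 6.63, then 8.18 and 8.23. Every treated library was above both of its controls. The rise was 48.2% in the A549-labelled libraries, with a log2 fold change of 0.48 ± 0.05 (SE, n = 2 each, limma adjusted p = 0.00302). It was 26.1% in the H1299-labelled libraries, with a log2 fold change of 0.29 ± 0.05 (limma adjusted p = 0.00408). Both held under all 15 alternatives, with adjusted p of 0.00166 to 0.0377 and of 0.00285 to 0.0268. The 2 responses differed by 0.18 ± 0.07, which did not pass the test (adjusted p = 0.0977, 95% interval 0.0055 to 0.36).

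TNRC6B, its paralog, was low and more variable. It stood at 1.80 and 0.948 FPKM in the A549-labelled controls and at 1.80 and 1.18 after miR-29a-3p, so the groups overlapped. Under the H1299 label it stood at 1.35 and 1.38, then at 2.04 and 1.95, with no overlap. The log2 fold changes were 0.08 ± 0.19 (limma adjusted p = 0.816) and 0.34 ± 0.19 (adjusted p = 0.183), on a spread shared by all groups. Fitted with the H1299-labelled libraries alone, the second passed the test (adjusted p = 0.0176). TNRC6A was 3.48 ± 1.38 times as abundant as TNRC6B in the A549-labelled controls and 4.77 ± 0.032 times in the H1299-labelled ones (SD, n = 2 each).

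DROSHA and DGCR8, which together form the Microprocessor, were higher after miR-29a-3p in the H1299-labelled libraries. DGCR8 (ENSG00000128191, chr22:20080232-20111877, plus strand), the RNA-binding partner, stood at 1.70 and 1.80 FPKM in the controls and at 2.48 and 2.36 after miR-29a-3p. DROSHA (ENSG00000113360, chr5:31400497-31532196, minus strand), the nuclease, stood at 3.88 and 4.11, then at 4.71 and 4.74. Neither pair overlapped. DGCR8 rose by 38.2%, with a log2 fold change of 0.31 ± 0.06 (SE, n = 2 each, limma adjusted p = 0.00556, and 0.00336 to 0.0357 over 14 alternatives). DROSHA rose by 18.3%, with a log2 fold change of 0.20 ± 0.05 (limma adjusted p = 0.0222). The DROSHA call was lost without H1299 control 1, miR-29a-3p 1 or miR-29a-3p 2 (adjusted p = 0.0775 to 0.107) and with the line fitted alone (adjusted p = 0.0577), within a range of 0.0134 to 0.107 over its alternatives.

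In the A549-labelled libraries the Microprocessor genes showed overlapping groups. DGCR8 stood at 4.35 and 4.45 FPKM, then at 4.20 and 4.51, with a log2 fold change of -0.01 ± 0.06 (95% interval -0.16 to 0.13, limma adjusted p = 0.914). DROSHA stood at 5.71 and 5.73, then at 5.97 and 5.67, with a log2 fold change of 0.02 ± 0.05 (95% interval -0.11 to 0.15, adjusted p = 0.829). The DGCR8 responses of the lines differed by -0.33 ± 0.09, the A549-labelled minus the H1299-labelled one (limma adjusted p = 0.0254). That difference lost its call without A549 control 1, control 2 or miR-29a-3p 1, or H1299 control 1, miR-29a-3p 1 or miR-29a-3p 2 (adjusted p = 0.0511 to 0.0792), within a range of 0.0177 to 0.0792 over 13 alternatives. The DROSHA responses differed by -0.18 ± 0.08, which did not pass (adjusted p = 0.118). DROSHA protein with DGCR8 is known to cleave hairpins in the DGCR8 mRNA itself. The microRNA genes MIR3618 and MIR1306 in those hairpins lie within DGCR8 exons and were not analysed here.

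DICER1 (ENSG00000100697, chr14:95086228-95158010, minus strand), the cytoplasmic nuclease, holds an 8mer site and did not pass the test in either line. It stood at 8.80 and 8.27 FPKM in the A549-labelled controls and at 8.10 and 9.78 after miR-29a-3p, where the treated libraries lay to both sides of the controls. In the H1299-labelled libraries it stood at 4.65 and 4.55, then at 4.92 and 4.91. The log2 fold changes were 0.06 ± 0.09 (95% interval -0.15 to 0.26, limma adjusted p = 0.712) and 0.08 ± 0.09 (95% interval -0.13 to 0.29, adjusted p = 0.478). DICER1 and the antisense gene DICER1-AS1 share 80 exonic bases, 0.651% of its exonic length.

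**Figure D3:**
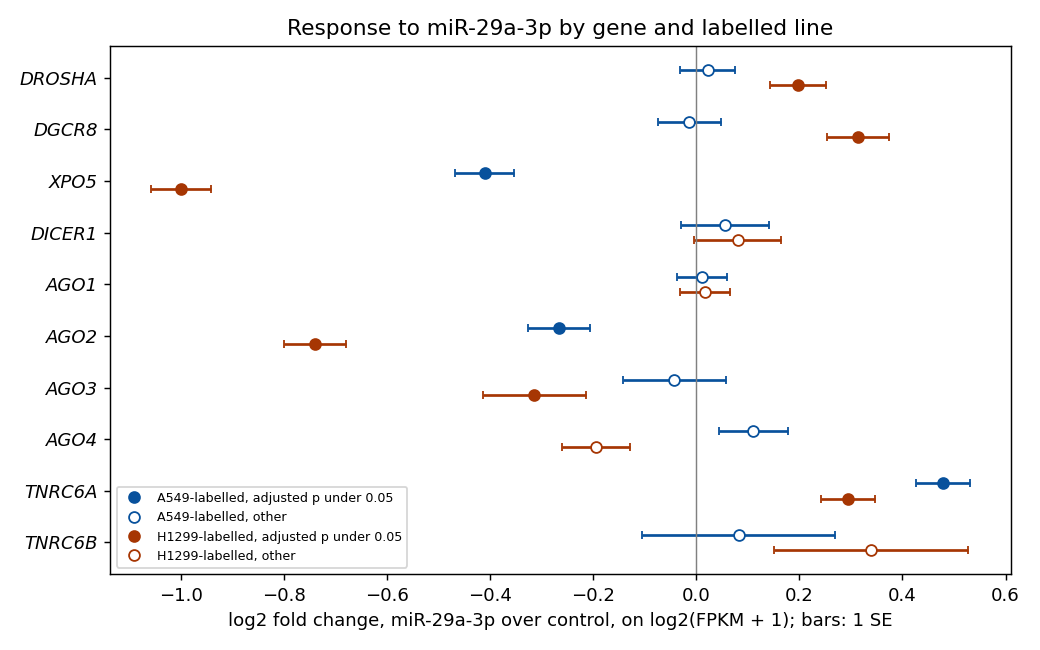
Log2 fold change of miR-29a-3p over control for each gene in the A549-labelled (blue) and H1299-labelled (brown) libraries, with bars of 1 SE and filled points where the adjusted p is under 0.05. XPO5 is at -0.41 and -1.0, AGO2 at -0.27 and -0.74 and TNRC6A at 0.48 and 0.29, while both points of AGO1 lie beside 0.

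The Argonautes did not move together. AGO1 (ENSG00000092847, chr1:35869808-35930528, plus strand) holds 3 sites of the 7mer-m8 form and stood at 10.3 and 9.95 FPKM in the A549-labelled controls and at 10.2 after miR-29a-3p, in both libraries. Under the H1299 label it stood at 2.62 and 2.64, then at 2.69 and 2.66. Its log2 fold changes were 0.01 ± 0.05 (95% interval -0.11 to 0.13, limma adjusted p = 0.914) and 0.02 ± 0.05 (95% interval -0.10 to 0.13, adjusted p = 0.814). Both intervals lie above the log2 fold changes of AGO2 in the same libraries, which were -0.27 and -0.74. The intervals measure only the spread of these libraries, and the scale understates the fold changes of low genes.

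AGO3 (ENSG00000126070, chr1:35930718-36072500, plus strand), the least abundant Argonaute, stood at 2.31 and 2.01 FPKM in the A549-labelled controls and at 1.82 and 2.33 after miR-29a-3p. In the H1299-labelled libraries it stood at 1.31 and 1.33, then at 0.926 and 0.803. Only the latter groups were apart. AGO3 fell by 34.4% there, with a log2 fold change of -0.31 ± 0.10 (SE, n = 2 each, limma adjusted p = 0.0386). The call was lost without any of the 4 H1299-labelled libraries (adjusted p = 0.0754 to 0.157), when low genes were kept (adjusted p = 0.087) and with replicate number as a block (adjusted p = 0.0615), within a range of 0.022 to 0.157. In the A549-labelled libraries the log2 fold change was -0.04 ± 0.10 (adjusted p = 0.819).

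AGO4 (ENSG00000134698, chr1:35808172-35857890, plus strand) holds no seed match in the annotated 3′ UTR. It stood at 4.44 and 4.18 FPKM in the A549-labelled controls and at 4.88 and 4.58 after miR-29a-3p, and at 4.28 and 4.65 then 3.64 and 3.90 in the H1299-labelled libraries. The treated libraries lay above the controls under the first label and below them under the second. The log2 fold changes were 0.11 ± 0.07 (limma adjusted p = 0.317) and -0.19 ± 0.07 (adjusted p = 0.0502), neither past the threshold. The second reached 0.0498 when the variance prior had no trend. The difference between them, 0.31 ± 0.09, passed the test (limma adjusted p = 0.0454), but not without any single 1 of the 8 libraries (adjusted p = 0.0559 to 0.128), nor with low genes kept, rescaled libraries or a replicate block (adjusted p = 0.073, 0.0725 and 0.0704).

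Summed over the family, Argonaute transcripts stood at 28.04 ± 1.31 FPKM in the A549-labelled controls and 26.4 ± 0.20 after miR-29a-3p (SD, n = 2 each). The sum was 18.0 ± 0.22 in the H1299-labelled controls and 12.7 ± 0.14 after miR-29a-3p. AGO2 made up 40.8% ± 0.50 of the sum in the A549-labelled controls and 35.5% ± 1.03 after miR-29a-3p. Under the H1299 label its share was 53.4% ± 1.05, then 42.3% ± 1.24. The share of AGO1 was 36.1% ± 0.85 and 38.7% ± 0.26 under the first label and 14.6% ± 0.091 and 21.1% ± 0.041 under the second. AGO2 therefore exceeded AGO1 by a ratio of 1.13 ± 0.040 in the A549-labelled controls and lay below it after miR-29a-3p, at a ratio of 0.917 ± 0.033. In the H1299-labelled libraries the ratio was 3.66 ± 0.049, then 2.01 ± 0.063. These sums and ratios are given as a description and were not tested.

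**Figure D4:**
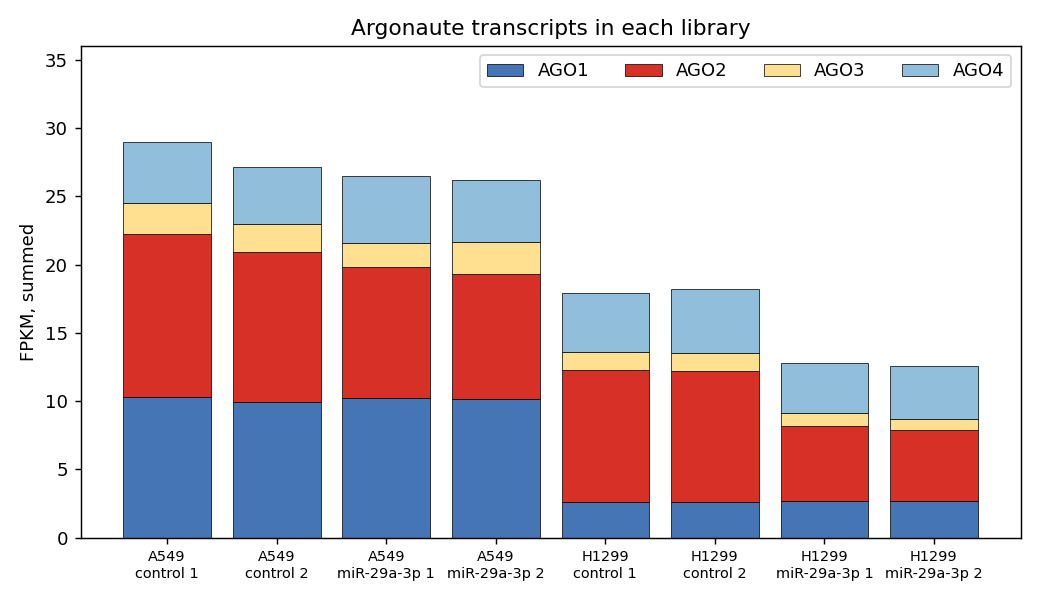
Summed FPKM of AGO1 to AGO4 in each of the 8 libraries, stacked by gene from 0. The AGO2 segment is shorter in every miR-29a-3p library than in its controls, and the total is lowest in the H1299-labelled miR-29a-3p libraries, at a mean of 12.7.

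AGO4, AGO1 and AGO3 lie in that order on the plus strand of chromosome 1, with 189 bases between the end of AGO1 and the start of AGO3. Their levels did not follow their position. Between the controls of the lines, AGO1 was 3.84 times as high under the A549 label, AGO3 1.64 times, and AGO4 stood at 4.31 ± 0.19 and 4.46 ± 0.26 FPKM (SD, n = 2 each). Most tested protein-coding neighbours also differed in amount between these controls, where 74.8% of all genes tested were called. C1orf216 stood at 17.4 ± 0.19 and 4.81 ± 0.49 FPKM, CLSPN, a checkpoint protein of DNA replication, at 15.1 ± 0.17 and 0.407 ± 0.050, and ADPRS, which removes ADP-ribose from proteins, at 31.8 ± 0.35 and 15.6 ± 0.20. TRAPPC3, a vesicle transport gene beyond AGO3, stood at 6.99 ± 0.95 and 5.75 ± 0.60, which did not pass the test (limma adjusted p = 0.0946, and 0.0417 without A549 control 2).

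The levels of most members differed between the control libraries of the lines, as did those of most genes. Of the 10 members, 7 were higher and 1 lower under the A549 label, while 45.0% of all genes tested were called higher and 29.8% lower, 74.8% in all. A call for 8 of 10 is near that background. The libraries did not overlap for 8 of 10 members, against 87.2% of all genes. Over all genes the median was 0.17 higher under the A549 label on the log2 scale, and rescaling the libraries brought this to 0.05. Against that shift, AGO1 was higher by 1.61 ± 0.05 (SE, limma adjusted p = 5.67e-07), XPO5 by 1.08 ± 0.06, DGCR8 by 0.97 ± 0.06 and DICER1 by 0.77 ± 0.09. AGO3 and DROSHA were higher by 0.45 ± 0.10 and 0.43 ± 0.05. TNRC6A was lower under the A549 label by 0.48 ± 0.05 (adjusted p = 0.00018). AGO2 was higher by 0.23 ± 0.06 (adjusted p = 0.0122), which was lost with rescaled libraries (0.08, adjusted p = 0.306), without A549 control 1 (adjusted p = 0.0646) and without H1299 control 2 (adjusted p = 0.053). AGO4 and TNRC6B did not pass (adjusted p = 0.598 and 0.938).

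The order of the levels also differed between groups. In the A549-labelled controls it ran XPO5, AGO2, AGO1, DICER1 and DROSHA, each apart from the next, then DGCR8, TNRC6A and AGO4 with overlapping libraries, then AGO3 and TNRC6B. After miR-29a-3p AGO1 stood above AGO2, AGO2 overlapped DICER1, and TNRC6A stood above DROSHA. In the H1299-labelled controls the order was AGO2, XPO5 and TNRC6A, then DICER1 and AGO4 with overlapping libraries, then DROSHA, AGO1, DGCR8, TNRC6B and AGO3. After miR-29a-3p TNRC6A stood first at 8.21 ± 0.036 FPKM and XPO5, second in the controls, stood sixth at 3.34 ± 0.026. The ratio of XPO5 to DROSHA was 3.04 ± 0.045 in the A549-labelled controls, 2.20 ± 0.075 after miR-29a-3p, 1.93 ± 0.075 in the H1299-labelled controls and 0.708 ± 0.0022 after miR-29a-3p (SD, n = 2 each).

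Set beside the sites, the responses were mixed. Of the 5 members with a 7mer-m8 or 8mer, XPO5 and AGO2 fell in both lines, AGO3 fell under the H1299 label, and AGO1 and DICER1 passed in neither. Of all tested genes with such a site, 21.4% were called lower in the A549-labelled libraries and 38.1% in the H1299-labelled ones. Of genes without one, 7.74% and 24.5% were. Of the 5 members without such a site limma called 0 lower in either line (1, AGO4 under the H1299 label, at an unadjusted p under 0.05), and TNRC6A, DROSHA and DGCR8 gave all the rises that were called. Of all tested genes without such a site, 8.21% were called higher under the A549 label and 29% under the H1299 label. Of those with a site, 4.45% and 20.6% were. Genes with and without a site were not matched for UTR length, and the part of the sites in these shares was not tested.

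The genes whose pattern over the 8 libraries lay closest to that of XPO5, the member with the widest range, were URB1-AS1, MMADHC and COPS5. Likeness was the root mean square difference between centred log2(FPKM + 1) profiles, which was 0.118, 0.123 and 0.124. MMADHC, a gene of vitamin B12 metabolism, stood at 63.8 ± 1.501 FPKM in the A549-labelled controls and 48.9 ± 1.36 after miR-29a-3p, and at 29.2 ± 0.055 and 16.5 ± 2.74 in the H1299-labelled libraries (SD, n = 2 each). COPS5, a subunit of the COP9 signalosome, stood at 12.96 ± 0.58 and 10.2 ± 0.26, then at 5.59 ± 0.013 and 2.95 ± 0.27. URB1-AS1 lies antisense to another gene, so its value is uncertain without a stated strand setting. Within the machinery the nearest profile to XPO5 was that of AGO1, at 0.408, and the farthest that of TNRC6A, at 1.04. This likeness takes in the difference between the lines, which between controls was 1.08 for XPO5 and 1.61 for AGO1 on the log2 scale. The responses of AGO1 to miR-29a-3p were 0.01 and 0.02, unlike those of XPO5, at -0.41 and -1.0.

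The wider pathway was covered by lists of 80 genes, chosen with earlier results of these data known, of which 73 were tested. In the A549-labelled libraries 7 rose and 4 fell, 15% of those tested against 16.0% of all genes. Under the H1299 label 19 rose and 15 fell, 47% against 50.0%. The medians were 0.029 and -0.0049 on the log2 scale, beside 0.0014 and 0.0012 for all genes. By these counts the pathway as a whole was called about as often as other genes.

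**Figure D5:**
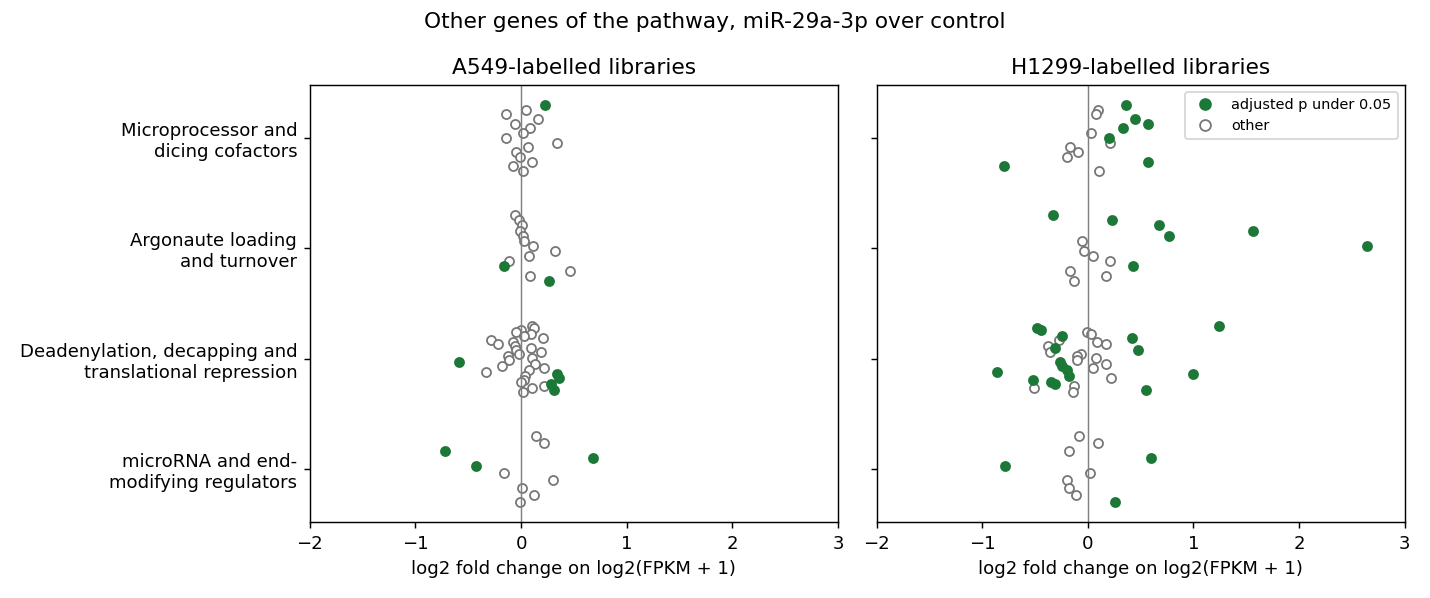
Log2 fold change of the other pathway genes tested, 1 point per gene, by list, in the A549-labelled (left) and H1299-labelled (right) libraries, with filled points where the adjusted p is under 0.05. The chaperone genes HSPA8 at 2.64 and HSP90AA1 at 1.56 stand far to the right in the H1299-labelled libraries.

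Of 15 cofactors of the Microprocessor and of Dicer, 1 rose and 0 fell in the A549-labelled libraries, with a median of 0.02, and 6 rose and 1 fell in the H1299-labelled ones, with a median of 0.11. That is 6.7% and 47% of the list called, against 16.0% and 50.0% of all genes. ADAR, which edits RNA hairpins, rose by 0.22 and 0.36 on the log2 scale, and the first call was lost without A549 control 1, control 2 or miR-29a-3p 1 (limma adjusted p = 0.0506 to 0.0646) and with the line fitted alone (0.0598). SRSF3, a splicing factor that recognises primary microRNAs, fell from 16.3 ± 0.030 to 8.97 ± 0.57 FPKM in the H1299-labelled libraries (SD, n = 2 each, limma adjusted p = 0.000121).

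Of 14 tested genes for loading and turnover of Argonaute, 1 rose and 1 fell in the A549-labelled libraries, with a median of 0.02, and 6 rose and 1 fell in the H1299-labelled ones, with a median of 0.19. The shares called were 14% and 50%, against 16.0% and 50.0% of all genes, of which 25.1% were higher and 24.8% lower under the H1299 label. HSPA8 and HSP90AA1, chaperones that open Argonaute for a small RNA duplex and serve many other proteins, rose under the H1299 label from 13.5 ± 0.092 to 89.2 ± 0.022 and from 42.6 ± 2.19 to 128 ± 8.64 FPKM (SD, n = 2 each). Both have processed pseudogenes, so their values carry some uncertainty. Under the A549 label they stood at 147 ± 10.8 and 159 ± 15.3, and at 359 ± 8.37 and 356 ± 4.22 (limma adjusted p = 0.381 and 0.94).

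Of 34 tested genes of deadenylation, decapping and translational repression, 4 rose and 1 fell in the A549-labelled libraries, with a median of 0.04, and 5 rose and 12 fell in the H1299-labelled ones, with a median of -0.13. The list was called at 15% and 50%, beside 16.0% and 50.0% of all genes, and the balance of directions was not tested. LSM14A, a repressor of translation in P bodies, fell from 23.4 ± 3.42 to 12.4 ± 0.66 FPKM under the H1299 label (SD, n = 2 each, limma adjusted p = 0.0023).

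MOV10, a helicase that binds Argonaute and is also an interferon-induced gene, rose in both lines, from 9.01 ± 0.086 to 11.7 ± 0.11 FPKM under the A549 label and from 3.70 ± 0.088 to 8.41 ± 0.062 under the H1299 label (SD, n = 2 each). TOB2, which recruits deadenylases, rose by 0.31 and 0.55 on the log2 scale, and the first call was lost without any of the 4 A549-labelled libraries (limma adjusted p = 0.0661 to 0.0765). EIF4E2, a cap-binding repressor, fell from 5.25 ± 0.24 to 3.15 ± 0.035 FPKM under the A549 label (adjusted p = 0.00719). It also fell by 0.27 under the H1299 label, a call lost without any library except H1299 miR-29a-3p 2 (adjusted p = 0.054 to 0.153) and under 4 other settings (0.0513 to 0.105). BTG2 rose from 8.12 ± 0.10 to 20.6 ± 0.45 FPKM under the H1299 label. PABPC4, a poly(A)-binding protein, rose from 10.8 ± 0.93 to 14.1 ± 1.03 under the A549 label (adjusted p = 0.0333), a call lost without any of the 4 A549-labelled libraries or either H1299 miR-29a-3p library (adjusted p = 0.0515 to 0.14) and under 3 other settings (0.0504 to 0.0934). TNRC6C, the third member of its family, stood between 0.539 and 1.41 FPKM on average in the 4 groups and was called in neither response (limma adjusted p = 0.159 and 0.281), and was named after its values were seen.

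Among 10 tested regulators and enzymes that modify RNA ends, 1 rose and 2 fell in the A549-labelled libraries, with a median of 0.06, and 2 rose and 1 fell in the H1299-labelled ones, with a median of -0.10. Called in each line were 30% of these genes, against 16.0% and 50.0% of all genes. LIN28B, which blocks maturation of let-7 microRNAs, rose in both lines, from 14.2 ± 0.19 to 23.4 ± 1.56 FPKM under the A549 label and from 1.43 ± 0.024 to 2.67 ± 0.041 under the H1299 label (SD, n = 2 each, limma adjusted p = 0.00137 and 0.000337). PARN, a poly(A)-specific ribonuclease, fell in both, from 6.95 ± 0.32 to 4.90 ± 0.25 and from 10.8 ± 0.38 to 5.83 ± 0.16 FPKM. HENMT1, a small RNA methyltransferase, fell from 5.0 ± 0.39 to 2.65 ± 0.50 under the A549 label (adjusted p = 0.00796, and 0.0553 with the line fitted alone). LIN28A lay under the filter on low values. Of the transcripts that host miR-29, MIR29B2CHG also lay under it, at 0.017 to 0.829 FPKM in single libraries, and the short hairpin genes were not analysed here.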

How the data were processed

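RNA was measured in 8 libraries, 2 in each of 4 groups. Values are FPKM that the authors deposited, made with StringTie on GRCh38 per the submitters' processing notes. For versions, aligner, annotation and strand setting, nothing is stated in these sources. FPKM hides depth, so the estimated fragments of a library come from steps between low values of genes with a single annotated transcript. For such genes 87.1% to 93.1% of values came out whole within 0.02. Fragments of the members were estimated over their full annotated exonic length, which may overstate them where a gene has several transcripts.

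Genes reaching 1 FPKM in 2 or more libraries were tested with limma 3.58.1 (R 4.3.3) on log2(FPKM + 1), with 1 mean per group, a variance prior with a trend, and Benjamini-Hochberg adjustment over 14635 genes. Fold changes on this scale understate those of low genes, and 4 residual degrees of freedom limit the precision. The script was tested on simulated data. Alternatives were a pseudocount of 0.1, no filter, a mean of at least 5 FPKM, rescaled libraries, no trend, a replicate block, each line alone and leaving out each library.

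The members and lists were chosen with earlier results of these data known. Pathway genes named are the 3 lowest and 3 highest called genes at 5 FPKM or more in each response and those called alike in both, unless said otherwise. Gene models are from GENCODE release 29, which held 31105 of 31461 identifiers.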

Additional observations from a re-analysis of the deposited data

Results flagged for a closer look

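The responses to miR-29a-3p differed between the lines for 4 of the 10 members by the limma interaction term, given here as the A549-labelled minus the H1299-labelled log2 fold change. XPO5 differed by 0.5898 and AGO2 by 0.4736, with falls in both lines that were deeper under the H1299 label, and both differences held under all 14 alternatives. DGCR8 differed by -0.3275, with a rise called under the H1299 label alone. AGO4 differed by 0.3052, with treated libraries above their controls under the A549 label and below them under the H1299 label, and neither response was called. The DGCR8 and AGO4 differences did not hold without single libraries.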

How the results depend on the processing

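Of 564 values of single members under an alternative, 509 kept direction and side of the threshold, 38 lost a call, 2 gained one and 15 changed sign, all of these without 1 library. Members called for a difference between the lines numbered 4, of which DGCR8 and AGO4 did not hold without single libraries. With a mean of at least 5 FPKM, 6 members were tested and 2 were called. XPO5 and AGO2 kept their calls there, while DGCR8 and AGO4 lay under that level and were not tested. Without 1 library, uncalled log2 values under the A549 label ran from -0.00971 to 0.0536 for DROSHA, -0.0547 to 0.0281 for DGCR8, -0.0663 to 0.177 for DICER1, -0.011 to 0.0324 for AGO1, -0.164 to 0.0785 for AGO3, -0.181 to 0.345 for TNRC6B, -0.0117 to 0.224 for BTG2 and -0.0335 to 0.014 for HSP90AA1. Differences between the lines ran from -0.146 to 0.0974 for DICER1, -0.0272 to 0.0162 for AGO1 and -0.52 to 0.00543 for TNRC6B, and those between controls from -0.0901 to 0.00837 for AGO4 and -0.28 to 0.245 for TNRC6B. The cause was not tested.

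Over all genes, 2336 were called under the A549 label, 1071 with the line alone and 1066 to 1212 without 1 of its 4 libraries. With a mean of at least 5 FPKM, 6085 genes were tested instead of 14635, and a larger share of them was called. Calls went from 7312 (50.0%) to 3773 (62%) under the H1299 label and from 5464 (37.3%) to 2984 (49%) for the difference. Between controls they went from 10941 (74.8%) to 4923 (80.9%), and under the A549 label from 2336 (16.0%) to 1598 (26.3%). With replicate number as a block, members called were 3, 5, 3 and 8 in the A549 and H1299 responses, their difference and the controls, and AGO3 (H1299) and AGO4 (difference) lost their calls. Same-numbered libraries' deviations correlated at -0.0367 to 0.0626 over the genes tested. This shows no large shared shift by number, but cannot tell whether same-numbered libraries shared a culture or day. Alternatives for the pathway genes and AGO neighbours were chosen after seeing the data. The fewest estimated fragments in a library were 161 for DGCR8, 243 for TNRC6B and 265 for AGO3.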
